A study of Mus musculus with 12 samples.

Results

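The genes described here encode heat shock proteins, the other molecular chaperones named with them, their co-chaperones and the transcription factors Hsf1 and Hsf2. They were chosen by gene name (Hsp, Hsf1, Hsf2, Dnaj, Cct, Tcp1, Bag, Pfdn, Stip1 and Ahsa1 names). This gave 77 rows with 76 names among the 14143 genes of the expression table, and 73 of the 77 passed the filter on low values that is used for testing. RNA was measured by RNA-seq in hematopoietic stem cells (HSCs), the bone marrow cells that give rise to all blood lineages, from female C57BL6J mice. Cells lacking lineage markers and positive for Sca-1 and c-kit were sorted against CD48 and CD135, then divided by the surface receptor CD150. Lymphoid-biased cells (Ly-HSCs) had low CD150, and myeloid-biased cells (My-HSCs) had high CD150. Young mice were 8 to 10 weeks old per the sample labels (8 to 12 weeks per the protocol) and old mice were 18 months old, and each of the 4 groups holds 3 libraries from independent groups of mice. The labels name no transgene, deletion or treatment in any group. Young and old mice came from different suppliers, so age and source cannot be told apart. All levels below are FPKM (fragments per length of transcript, scaled to the number of mapped fragments), which are per length and so can be compared between genes, while all differences are on the log2(FPKM + 1) scale with the standard error of limma.

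Chaperones bind unfolded or partly folded proteins and help them fold, assemble or be degraded. HSP70 proteins do so in cycles of ATP hydrolysis that J-domain proteins (the DNAJ families) start. Nucleotide exchange factors (the HSP110 and several BAG proteins) end these cycles. Chaperonins such as TRiC in the cytosol and HSP60 in mitochondria enclose their clients in a chamber. Heat, oxidants and unfolded proteins release the transcription factor HSF1, which binds heat shock elements in the promoters of many of these genes. HSCs are known for low protein synthesis and for sensitivity to its disturbance, and damage to protein folding with age is one of the textbook features of aging cells.

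Of 20 genes that define the family in textbooks, 13 were in the table. Hsp90aa1, Hsp90ab1 and Hsp90b1 (the HSP90 chaperones), Hspa8 (constitutive HSP70), Hspa5 (the HSP70 of the endoplasmic reticulum, ER), Hspb1 and the HSP90 activator Ahsa1 were not analysed here, and neither was the TRiC subunit Cct6a. The 4 rows under the filter were Hspa12a, Dnajb13, Cct8l1 and Hspb8, whose highest values were 0.788, 0.0610, 0.483 and 1.57 FPKM. Hspa14 occupies 2 rows with overlapping loci on chromosome 2, so reads may have been divided between them. GENCODE M21 names the row at chr2:3504527-3512790 Gm45902. Together the 77 rows made up 1.03% to 1.36% of the summed FPKM of a library. The TRiC subunits held 22.4% of that share, the DNAJC genes 21.8% and the DNAJB genes 11.4%.

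The heat shock element consists of GAA units in alternating direction, each separated by any pair of bases. It was searched in the RefSeq promoter windows of GRCm38.p6, 250 bases before to 50 bases after each start site, on both strands, as GAANNTTC or TTCNNGAA for a pair of units and as GAANNTTCNNGAA or TTCNNGAANNTTC for 3 units, so every match of 3 units also contains matches of 2. Windows were found for 66 of the 76 names. At least 3 units were present in 4 of these 66 genes (6.06%) against 0.662% of 27025 genes, and at least 2 units in 17 (25.8%) against 17% of all genes. The 4 genes were Hspd1, Hspe1, Dnajb6 and Hsph1, in which the element lies after the start site. A match is a description of the sequence and not a measured binding site. The elements of the neighbouring genes Hspd1 and Hspe1, which share one between their divergent start sites, and of Dnajb6 are shown because these genes recur in the results, and the 250 bases before the start sites of Hspa1a and Hspa1b are shown because the pair is nearly identical there as in its coding sequence. Capitals mark the units, all sequences are written 5′ to 3′ on the given strand, and all are RefSeq sequence.
Hspd1 and Hspe1, chr1:55088053-55088082, plus strand: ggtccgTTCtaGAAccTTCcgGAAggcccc
Dnajb6, chr5:29735844-29735872, plus strand: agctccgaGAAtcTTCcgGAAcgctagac
Hspa1a, chr17:34972157-34972406, minus strand: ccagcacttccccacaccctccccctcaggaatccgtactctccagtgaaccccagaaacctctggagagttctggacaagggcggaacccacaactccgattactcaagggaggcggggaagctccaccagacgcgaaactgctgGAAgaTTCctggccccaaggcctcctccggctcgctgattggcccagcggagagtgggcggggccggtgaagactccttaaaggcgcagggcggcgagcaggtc
Hspa1b, chr17:34959239-34959488, minus strand: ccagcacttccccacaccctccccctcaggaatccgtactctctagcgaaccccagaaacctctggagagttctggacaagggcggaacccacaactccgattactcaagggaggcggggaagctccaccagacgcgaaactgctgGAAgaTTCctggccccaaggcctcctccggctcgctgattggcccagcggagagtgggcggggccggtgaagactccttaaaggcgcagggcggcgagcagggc
The shared element of Hspd1 and Hspe1 holds 4 units, that of Dnajb6 holds 3, and both HSP70 promoters hold 2 units that begin 104 bases before the start site. The elements of Hspd1 and Hspe1 and of Dnajb6 overlap annotated first exons.

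Several properties of the libraries moved with the groups. The share of all genes listed at 0 was 25.0% to 34.1% among young Ly-HSCs, 19.3% to 26.1% among young My-HSCs, 13.3% to 22.3% among old Ly-HSCs and 12.1% to 18.2% among old My-HSCs, and read totals are unknown. The median within-group SD of the members on the log2 scale was 0.66 among young Ly-HSCs, 0.43 among young My-HSCs, 0.26 among old Ly-HSCs and 0.25 among old My-HSCs, beside 0.68, 0.43, 0.35 and 0.28 over all genes. Young Ly-HSC library 1 held the single lowest value of 26% of members and 25.4% of all genes, and young My-HSC library 1 of 24.7% of members and 11.3% of all genes. Without these libraries, no member was called, and 42 members in Ly-HSCs and 45 in My-HSCs had a positive age difference. Without library 1 of all 4 groups, again no member was called, and these counts were 42 and 49. With the share of genes at 0 as a covariate, they were 40 and 40. The 8 of 10 HSC markers with values summed to 449 to 594 FPKM among young Ly-HSCs and 358 to 423 among old Ly-HSCs, without overlap, and to 538 to 559 and 503 to 545 among young and old My-HSCs, with overlap. In Ly-HSCs 4 of the 8 had an unadjusted p under 0.05 for age, all lower in old cells, and limma called none. Slamf1, which encodes CD150, was 1.39 to 8.33 FPKM in Ly-HSC and 15.01 to 35.3 FPKM in My-HSC libraries. The summed level of 7 of 8 monocyte and macrophage markers was 259.6 FPKM in old Ly-HSC library 1 and 184 FPKM in old My-HSC library 1, against 30.1 to 51.6 FPKM in the other 4 old libraries, which lay within the 0.416 to 57.4 FPKM of the young ones. The 8 of 10 erythroid markers with values likewise summed to 120.5 and 91.4 FPKM in those libraries, against 13.8 to 42.9 FPKM in the other old and 9.51 to 34.8 FPKM in the young libraries. Old library 1 of each subset thus stood apart in both marker sets. The 2 of 10 granulocyte markers with values summed to 1.42 to 39.1 FPKM in young and 54.6 to 176 FPKM in old libraries, without overlap. The 2 genes differed in pattern. Prtn3 was 1.42 to 37.7 FPKM in young and 54.0 to 106 FPKM in old libraries, without overlap. Mmp9 was 67.4 and 69.3 FPKM in old library 1 of Ly-HSCs and My-HSCs, so these libraries stood apart here too. It was 0.372 to 4.32 FPKM in the other old and 0 to 1.38 FPKM in the young libraries. The 15 of 17 cell cycle genes with values summed to 238 to 434 FPKM among young Ly-HSCs, 406 to 561 among old Ly-HSCs, 289 to 398 among young My-HSCs and 291 to 351 among old My-HSCs. The ages overlapped in both subsets, while old Ly-HSC sums lay above all old My-HSC sums. All 15 were lower in old My-HSCs than in old Ly-HSCs (3 at an unadjusted p under 0.05 by limma). With age, 14 were higher in Ly-HSCs (5 at that p) and 8 in My-HSCs, and none was called. Markers of B cells (6 of 7), of T and NK cells (5 of 6) and of megakaryocytes (3 of 6) reached at most 26.1, 32.5 and 80.6 FPKM in sum. The 4 of 13 immediate early genes with values respond to handling of cells. They summed to 124 to 316 FPKM among young and 300 to 387 among old Ly-HSCs, with overlap. Among My-HSCs the sums were 167 to 307 FPKM when young and 469 to 485 when old, without overlap. Averaged over the subsets, limma called 1 of the 4 for age, higher in old cells (adjusted p = 0.0179), beside 0.844% of all genes. The part of these markers and of the zeros in the age differences given next was not tested, and in sorted cells measured in bulk, a change in cell composition and a change in RNA per cell cannot be told apart. Of the 37 named members, 9 (Tcp1, Cct7, Cct8, Dnaja1, Dnajc7, Hspb6, Hspd1, Hspe1 and Pfdn5) share exon sequence with another gene of the table, 8 of them with one on the opposite strand. Per the labels the library kit keeps strand, but no source used here says whether counting used it, so their values are uncertain to that extent.

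The stress-inducible HSP70 genes Hspa1a (chr17:34969190-34972156) and Hspa1b (chr17:34956436-34959238) were the members that varied most across the 12 libraries, with SDs of 1.96 and 1.96 on the log2 scale against a median of 0.51 over the members tested. Hspa1a had values of 0, 23.5 and 39.0 FPKM in young Ly-HSC libraries 1, 2 and 3, 29.6, 11.4 and 37.5 among old Ly-HSCs, 0, 39.9 and 41.4 among young My-HSCs and 27.2, 5.90 and 15.2 among old My-HSCs. Hspa1b had values of 0.113, 27.9 and 21.5 FPKM among young Ly-HSCs, 10.2, 16.0 and 59.9 among old Ly-HSCs, 0, 20.9 and 84.7 among young My-HSCs and 10.8, 12.0 and 26.2 among old My-HSCs. Both genes were at or near 0 in library 1 of each young group and well above it in every other library, and the old and young libraries overlapped in both subsets. Their coding sequences have 1915 identical and 8 mismatched bases (99.6% of aligned bases identical), and 247 of the 250 bases before their start sites are identical, so how reads were divided between them is uncertain. Their sum, which is less affected by such division, was 0.113, 51.4 and 60.5 FPKM among young Ly-HSCs, 39.8, 27.5 and 97.4 among old Ly-HSCs, 0, 60.8 and 126 among young My-HSCs and 37.9, 17.9 and 41.4 among old My-HSCs. Averaged over the subsets the age difference was 0.79 ± 1.02 for Hspa1a and 0.86 ± 1.02 for Hspa1b (limma, adjusted p = 0.780 and 0.759, old higher), and without both young libraries numbered 1 it was -0.93 and -0.80. The sign of the age difference of the inducible HSP70 genes thus changed when those libraries were left out.

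Hsf1, the factor that drives the heat shock response, stood at 19.4, 82.7 and 90.3 FPKM among young Ly-HSCs, 50.3, 45.2 and 62.0 among old Ly-HSCs, 84.7, 46.2 and 59.9 among young My-HSCs and 76.5, 43.5 and 35.1 among old My-HSCs. Its lowest value fell in young Ly-HSC library 1 and its highest in young Ly-HSC library 3, so the group with the most spread held both ends. Hsf2, a related factor with roles in development, ranged from 3.31 to 33.6 FPKM with a median of 10.6. Its age difference was -1.01 ± 0.57 in Ly-HSCs and 0.17 ± 0.57 in My-HSCs (limma, adjusted p = 0.458 and 0.991). Neither factor was called in any comparison.

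Of the other members of the HSP70 and HSP110 families, Hspa9 (mortalin, the mitochondrial HSP70) was the most abundant, at 126 ± 29.2 FPKM (SD, n = 3) among young Ly-HSCs, 126 ± 3.42 among old Ly-HSCs, 122 ± 7.34 among young My-HSCs and 148 ± 17.4 among old My-HSCs. Every old My-HSC library (129, 163 and 151) lay above every young one (128, 124 and 114), by 0.27 ± 0.18 (limma, adjusted p = 0.876). Hspa4, an HSP110 nucleotide exchange factor, stood at 91.6 ± 24.2 FPKM in young and 109.8 ± 20.0 in old Ly-HSCs, and at 89.1 ± 22.8 in young and 118 ± 17.9 in old My-HSCs, with overlap in both subsets. Hsph1, which encodes HSP110 itself, ranged from 10.8 to 23.1 FPKM and differed with age by 0.21 ± 0.35 in Ly-HSCs and -0.01 ± 0.35 in My-HSCs. Hspa13, an HSP70-like ATPase of microsomes, was 0.127, 2.75 and 3.72 FPKM in young Ly-HSCs and 8.92, 6.77 and 6.31 in old Ly-HSCs, without overlap, and 0.638, 5.17 and 9.11 against 8.37, 6.53 and 6.84 in My-HSCs, with overlap. It is named here after its values were seen.

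**Figure D1:**
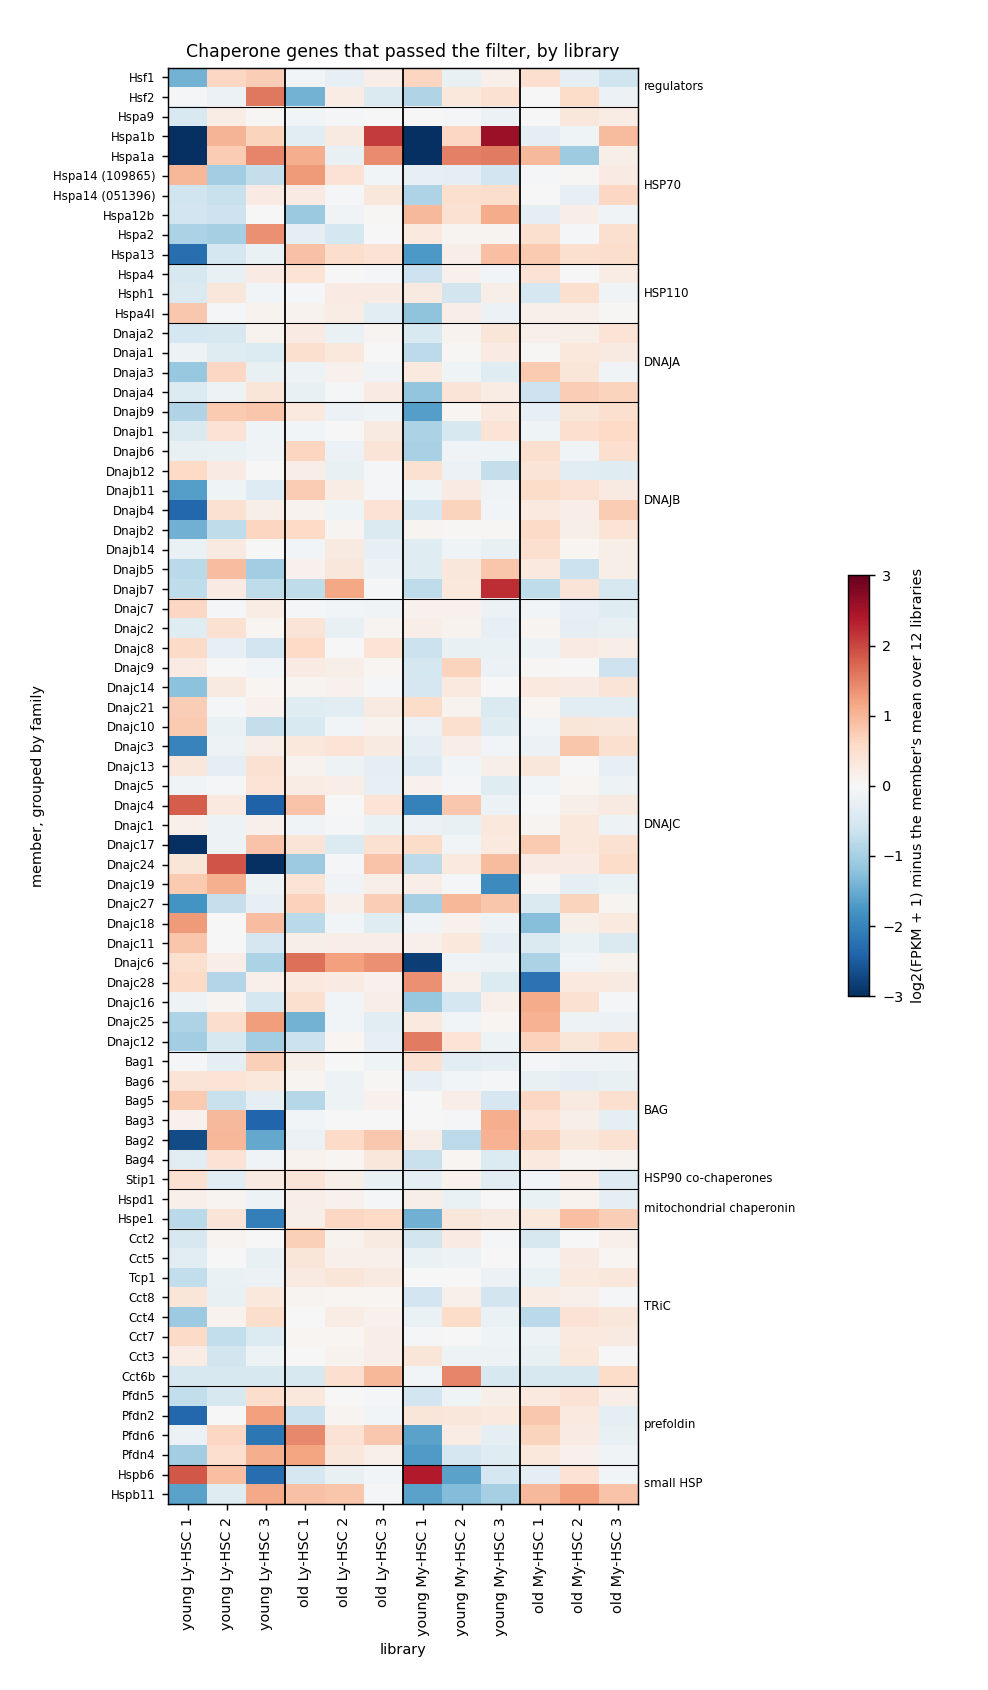
Heat map of the 73 members that passed the filter (rows, by family) in the 12 libraries (columns, by group), coloured by log2(FPKM + 1) minus the member's mean over the libraries, with colours limited at -3 and 3. The columns of young Ly-HSC library 1 and young My-HSC library 1 hold the single lowest value of 19 and 18 members, and Hspa1a and Hspa1b are among the darkest cells there.

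The J-domain proteins form the largest family, with 4 DNAJA, 11 DNAJB and 23 DNAJC genes. Dnajb11 (chr16:22857845-22879634), a co-chaperone of the ER HSP70, was the single member whose old libraries all lay above the young ones in both subsets. It was 4.25, 14.1 and 11.6 FPKM among young Ly-HSCs against 27.0, 18.2 and 15.3 among old Ly-HSCs, and 14.1, 18.8 and 14.3 among young My-HSCs against 23.2, 21.4 and 19.0 among old My-HSCs. The gap between the groups was narrow in each subset, and young Ly-HSC library 1 was lowest by far. The difference was 1.05 ± 0.39 in Ly-HSCs and 0.42 ± 0.39 in My-HSCs (limma, adjusted p = 0.275 and 0.940), and that in Ly-HSCs was 0.58 with young Ly-HSC library 1 left out and 0.36 with the 4 libraries numbered 1 left out. Dnajb6, which suppresses aggregation of polyglutamine proteins and carries the 3-unit element shown above, was 44.5, 45.2 and 48.2 FPKM in young and 81.8, 45.5 and 68.7 in old Ly-HSCs. In My-HSCs it was 26.0, 48.3 and 47.2 when young and 73.0, 48.4 and 73.6 when old. Library 2 of each old group lay at the level of the young libraries, and the old and young My-HSC libraries were separated by less than their spread. Its age difference was 0.46 ± 0.28 in Ly-HSCs and 0.69 ± 0.28 in My-HSCs (limma, adjusted p = 0.492 and 0.575), and that in My-HSCs was 0.41 without young My-HSC library 1 and 0.32 without the 4 libraries numbered 1.

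Dnajb1, the heat-inducible HSP40, was 52.7, 97.1 and 65.9 FPKM among young Ly-HSCs, 67.7, 72.0 and 86.6 among old Ly-HSCs, 36.9, 51.6 and 96.6 among young My-HSCs and 65.7, 102 and 109.5 among old My-HSCs, so ages overlapped in both subsets. Dnaja1, a J-domain partner of cytosolic HSP70, was 24.8 ± 2.53 FPKM (SD, n = 3) in young and 37.5 ± 6.19 in old Ly-HSCs without overlap, and 28.5 ± 10.1 in young and 35.8 ± 3.55 in old My-HSCs with overlap. Its averaged age difference was 0.47 ± 0.19 (limma, adjusted p = 0.274), and 0.31 with the share of genes at 0 as a covariate. Dnaja2, the most abundant DNAJA gene, ranged from 50.2 to 95.8 FPKM, and Dnajb9, a J-domain protein of the ER and the most abundant DNAJB gene, from 23.3 in young My-HSC library 1 to 134 in young Ly-HSC library 3. Dnajc7, the most abundant DNAJC gene and a co-chaperone of HSP70 and HSP90, was lower in old cells by -0.34 ± 0.19 in Ly-HSCs and -0.25 ± 0.19 in My-HSCs (limma, adjusted p = 0.445 and 0.906), with young libraries at 74.3 to 129.9 FPKM and old ones at 65.2 to 82.2. None of these differences passed the test.

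Several of the BAG proteins exchange the nucleotide of HSP70 and link it to other pathways. Bag1, which couples HSP70 to the proteasome, was the most abundant, at 102 to 209 FPKM over the 12 libraries. Bag3, a stress-inducible gene of selective autophagy, was 14.9, 27.8 and 1.81 FPKM among young Ly-HSCs, 12.8, 13.5 and 13.6 among old Ly-HSCs, 13.6, 13.4 and 30.4 among young My-HSCs and 18.3, 15.5 and 11.2 among old My-HSCs. The 3 old Ly-HSC libraries thus lay close together inside the range of the young ones. Stip1, the protein that hands clients from HSP70 to HSP90, ranged from 72.7 to 131 FPKM, and its averaged age difference was 0.03 ± 0.17.

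In mitochondria, the chaperonin HSP60 (Hspd1) works with its lid HSP10 (Hspe1). Hspd1 (chr1:55077835-55088243) varied least of the members tested, with an SD of 0.17 on the log2 scale over the 12 libraries, and stood between 92.6 and 128 FPKM. Hspe1 (chr1:55088132-55091307), which starts on the other strand beside it, was 22.1, 51.7 and 8.76 FPKM in young Ly-HSCs and 44.5, 61.6 and 60.5 in old Ly-HSCs. In My-HSCs it was 13.8, 50.6 and 47.9 when young and 49.6, 75.0 and 66.4 when old. Its 3 low values were in young libraries, while library 2 of both young groups and library 3 of young My-HSCs lay within or near the range of the old ones. The age difference of Hspe1 was 1.29 ± 0.55 in Ly-HSCs and 0.93 ± 0.55 in My-HSCs (limma, adjusted p = 0.339 and 0.833), and that of Hspd1 was 0.08 ± 0.17 and -0.10 ± 0.17. The ratio of Hspe1 to Hspd1 accordingly ranged from 0.0880 to 0.717, and it was lowest in young Ly-HSC library 3 (0.0880), young My-HSC library 1 (0.110) and young Ly-HSC library 1 (0.177). Averaged over the subsets, the age difference of Hspe1 was 1.11 ± 0.39. With the share of genes at 0 in a library as a covariate, it was -0.032 (limma, adjusted p = 0.987). That share was itself mostly higher in young libraries, so the adjusted value cannot separate it from age.

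TRiC, also called CCT, is the cytosolic chaperonin that folds actin and tubulin, and its subunits occur once each in a ring. The RNA of the 7 subunit genes with values differed several-fold in mean level over the 12 libraries. Subunit proteins were not measured. Cct2 was highest at 227 FPKM, followed by Cct5 at 140.2, Tcp1 at 71.0, Cct8 at 61.3, Cct4 at 40.2, Cct7 at 36.1 and Cct3 at 30.1. Cct2 lay above Cct5, Cct5 above Tcp1 and Cct8 above Cct4 in all 12 libraries. The other neighbours in this order changed places in some libraries: Tcp1 lay above Cct8 in 9, Cct4 above Cct7 in 9 and Cct7 above Cct3 in 10 of the 12, so these pairs are not separated beyond their spread. The ratio of Cct2 to Cct3 ran from 3.87 to 12.1 between libraries.

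**Figure D2:**
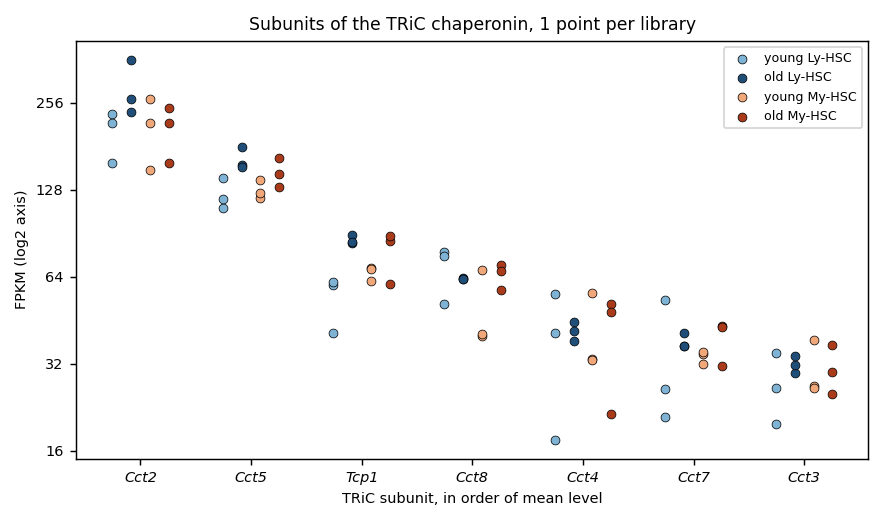
Levels of the 7 TRiC subunit genes in FPKM on a log2 axis, 1 point per library, coloured by group. Cct2 and Cct5 lie above the other 5 subunits in every library, and Tcp1 is a subunit in which the old Ly-HSC points (83.7 to 88.9) stand clear of the young Ly-HSC points (40.9 to 61.4).

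Tcp1 (chr17:12915701-12925067), the alpha subunit, had the smallest p among the members for old against young Ly-HSCs. It was 40.9, 60.1 and 61.4 FPKM in young Ly-HSCs and 83.7, 88.9 and 84.3 in old Ly-HSCs, a mean of 54.1 ± 11.5 against 85.6 ± 2.86 (SD, n = 3). All 3 old libraries lay above all 3 young ones. In My-HSCs it was 68.4, 68.3 and 61.8 when young and 60.3, 85.3 and 88.5 when old, and old library 1 lay below all young ones. The difference was 0.67 ± 0.20 in Ly-HSCs and 0.22 ± 0.20 in My-HSCs (limma, adjusted p = 0.190 and 0.940), and the interaction of -0.46 ± 0.29 was not called (adjusted p = 0.904). With the share of genes at 0 as a covariate the difference in Ly-HSCs was 0.26 (limma, adjusted p = 0.811), and without young Ly-HSC library 1 it was 0.49. Cct5 was 123 ± 15.7 FPKM in young and 163 ± 14.9 in old Ly-HSCs, without overlap, and 128 ± 9.75 in young and 147 ± 17.4 in old My-HSCs, with overlap. Its differences were 0.40 ± 0.16 and 0.19 ± 0.16 (limma, adjusted p = 0.298 and 0.918), and that in Ly-HSCs was 0.24 with the covariate and 0.25 without the 4 libraries numbered 1. Cct2 was 158, 235 and 219 FPKM in young Ly-HSCs and 360.4, 237 and 265 in old Ly-HSCs, where the nearest libraries nearly touched, while in My-HSCs its age difference was -0.00 ± 0.25. Of the 8 tested members of the TRiC family, which include the rarely detected Cct6b, 7 had a positive age difference in Ly-HSCs and 5 in My-HSCs, and none was called.

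Prefoldin delivers newly made actin and tubulin to TRiC. Pfdn5 was the most abundant of the 4 Pfdn genes in the table. A further prefoldin subunit, Vbp1, was counted among the partners below and is not in the sums given here. Pfdn5 stood at 66.3 ± 33.7 FPKM (SD, n = 3) in young and 77.4 ± 11.3 in old Ly-HSCs. In My-HSCs it stood at 65.5 ± 16.9 when young and 89.8 ± 6.89 when old. Pfdn6 was 12.5, 22.4 and 2.41 FPKM in young and 40.3, 19.5 and 25.9 in old Ly-HSCs, a difference of 1.47 ± 0.64 (limma, adjusted p = 0.346) with overlapping libraries. Pfdn4 was 0.779, 3.03 and 3.43 FPKM in young and 6.16, 5.27 and 4.36 in old My-HSCs, without overlap (0.97 ± 0.60, limma, adjusted p = 0.845). Pfdn2 spread from 5.05 to 71.5 FPKM within young Ly-HSCs alone. Summed over the 4 Pfdn genes, the levels were 62.1 to 189.9 FPKM in young Ly-HSCs and 129 to 162 FPKM in old Ly-HSCs. The old libraries thus lay inside the range of the young ones. In My-HSCs the sums were 91.9, 124 and 134 FPKM when young and 171, 157 and 124 FPKM when old, so that 2 of 3 old libraries lay above every young one.

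Hspb11 (chr4:107253593-107279938) carries a small heat shock protein name but encodes IFT25, a component of intraflagellar transport. It was 0, 1.37 and 5.64 FPKM among young Ly-HSCs, 4.61, 4.37 and 1.97 among old Ly-HSCs, 0, 0.239 and 0.524 among young My-HSCs and 4.91, 6.11 and 4.45 among old My-HSCs. The My-HSC libraries did not overlap between ages, while in Ly-HSCs young library 3 was above all old ones. The age difference was 2.31 ± 0.62 in My-HSCs and 0.84 ± 0.62 in Ly-HSCs (limma, adjusted p = 0.271 and 0.578), with an interaction of 1.47 ± 0.87 (adjusted p = 0.904). Averaged over the subsets it was 1.57 ± 0.44 with an adjusted p of 0.123, the smallest of the members by limma, and without young Ly-HSC library 3 it was 1.92 with an adjusted p of 0.0254. In My-HSCs the adjusted p was 0.0390 when each group of libraries was given its own weight in limma. With the share of genes at 0 as a covariate, the difference was 1.06 averaged and 1.91 in My-HSCs (limma, adjusted p = 0.635 and 0.459). Without the 4 libraries numbered 1, these differences were 1.09 and 2.18 (limma, adjusted p = 0.290 and 0.310). Hspb6, a true small heat shock protein best known from muscle, was 16.9, 8.15 and 0 FPKM in young Ly-HSCs and 24.3, 0.605 and 2.39 in young My-HSCs, against 2.42 to 5.65 over all 6 old libraries.

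**Figure D3:**
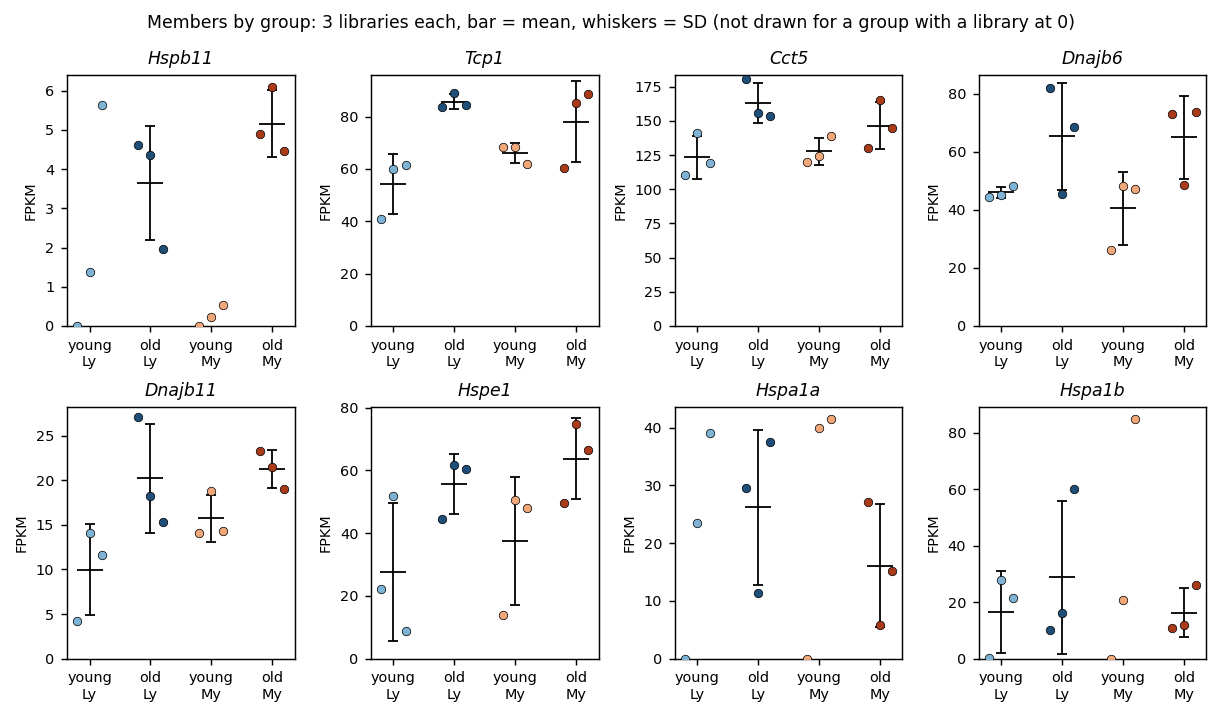
FPKM of 8 members in the 4 groups, 1 point per library, with the mean and SD of 3 libraries where no library was listed at 0. Tcp1 and Cct5 separate the ages in Ly-HSCs, Hspb11 and narrowly Dnajb6 in My-HSCs, and Dnajb11 in both subsets. Hspa1a and Hspa1b spread from near 0 to 41.4 and 84.7 among young libraries.

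With age, in Ly-HSCs, no member was called at an adjusted p under 0.05 by limma, against 0.349% of the 10900 genes tested. At an unadjusted p under 0.05 there were 10 members (8 higher and 2 lower in old cells) of 73, beside 13.3% of all genes. A positive age difference was seen in 50 of 73 members (68.5%) and in 62.4% of all genes, with a median of 0.28 over the members and 0.18 over all genes. The members' median was 0.09 with the share of genes at 0 as a covariate, 0.13 without both young libraries numbered 1 and 0.10 without all 4 libraries numbered 1. The medians over all genes in these settings are not given here, so the members cannot be set beside them. Under quantile normalization the median was 0.16 over the members and 0.03 over all genes. All 3 old libraries lay above all 3 young ones for 9 members (Tcp1, Cct2, Cct5, Dnaja1, Dnajb11, Dnajc3, Dnajc6, Dnajc27 and Hspa13), which is 12.3% of members beside 11.5% of all genes. They lay below for Bag6 and Dnajc18, beside 4.5% of all genes. These shares are near those of the whole table.

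In My-HSCs, likewise, no member was called by limma, against 0.211% of genes. At an unadjusted p under 0.05 there were 3 members (2 higher, Hspb11 and Dnajb6, and 1 lower, Hspa12b), beside 7.21% of all genes. A positive age difference was again seen in 50 of 73 members (68.5%), beside 55.8% of all genes, with a median of 0.22 against 0.07. The members' median was 0.04 with the covariate, 0.14 without both young libraries numbered 1 and 0.16 without all 4, again without the medians over all genes. Under quantile normalization it was 0.20, and the median over all genes was -0.02. The old libraries lay above the young ones for 12 members (Bag4, Bag5, Dnajb2, Dnajb6, Dnajb11, Dnajb14, Dnajc8, 1 row of Hspa14, Hspa9, Hspb11, Pfdn4 and Pfdn5), which is 16.4% of members beside 11.3% of all genes. They lay below for Hspa12b, beside 7.8% of all genes.

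Averaged over both subsets, no member was called by limma, against 0.844% of genes, and 12 members (11 higher and 1 lower) had an unadjusted p under 0.05, beside 14.7% of all genes. The members of smallest p were Hspb11, Tcp1 and Dnajb6, the last with 0.58 ± 0.20 and an adjusted p of 0.203 by limma. The age difference was positive in both subsets for 35 of 73 members, negative in both for 8 and of opposite sign for 30, and 38.4% of all genes were positive in both. No member separated all 6 old from all 6 young libraries in either direction, beside 1.21% of genes higher and 0.367% lower. Dnajb11 was the 1 member higher without overlap in both subsets, beside 2.44% of genes, and none was lower in both, beside 0.908%. The interaction of age and subset was called for no member and no gene (0% by limma), and at an unadjusted p under 0.05 for no member, beside 5.65% of genes.

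**Figure D4:**
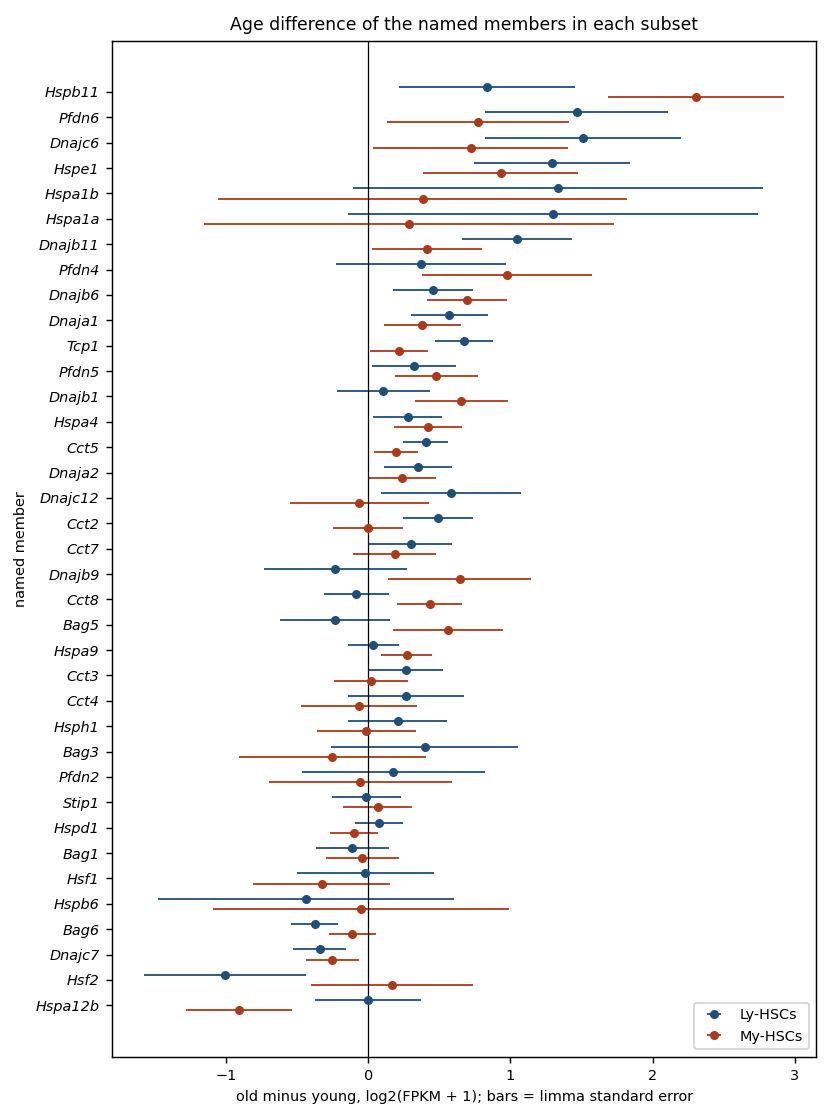
Old minus young difference on the log2(FPKM + 1) scale for the 37 named members, with limma standard errors, for Ly-HSCs and My-HSCs separately and ordered by their mean. Most points lie right of 0, the bars of Hspa1a and Hspa1b (1.44 on the log2 scale) are the widest, and Hspb11 in My-HSCs lies farthest right at 2.31.

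Between the subsets, Bag6, a chaperone that guards tail-anchored and misplaced membrane proteins, was lower in every My-HSC library than in every Ly-HSC library of the same age. It was 62.2, 63.6 and 59.7 FPKM among young Ly-HSCs against 39.8, 44.9 and 46.5 among young My-HSCs, and 50.7, 42.7 and 49.1 among old Ly-HSCs against 40.9, 39.2 and 40.7 among old My-HSCs. Young Ly-HSCs stood highest of the 4 groups and old My-HSCs lowest, and old Ly-HSC and young My-HSC libraries overlapped. The subset difference was -0.49 ± 0.17 in young and -0.23 ± 0.17 in old cells (limma, adjusted p = 0.230 and 1), and the age difference in Ly-HSCs was -0.38 ± 0.17 (adjusted p = 0.348). Dnajc12, a J-domain protein that assists aromatic amino acid hydroxylases, went the other way and was low throughout. It was 0, 0.477 and 0 FPKM among young Ly-HSCs and 5.06, 1.76 and 0.869 among young My-HSCs, and 0.320, 1.16 and 0.736 among old Ly-HSCs against 2.36, 1.67 and 2.06 among old My-HSCs. The subsets did not overlap at either age, at levels near or under the filter, and the difference was 1.47 ± 0.49 in young and 0.82 ± 0.49 in old cells (limma, adjusted p = 0.226 and 1), with 0.90 in young cells when both libraries numbered 1 were left out.

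Hspa12b, a distant HSP70 relative known from endothelial cells, was highest in young My-HSCs. It was 8.46, 8.22 and 13.1 FPKM among young Ly-HSCs, 5.51, 12.1 and 13.4 among old Ly-HSCs, 26.5, 18.4 and 29.7 among young My-HSCs and 10.7, 15.2 and 12.0 among old My-HSCs. No young My-HSC library overlapped any library of the other groups, which in turn overlapped each other. The difference of young My-HSCs from young Ly-HSCs was 1.24 ± 0.37 and that of old from young My-HSCs was -0.91 ± 0.37 (limma, adjusted p = 0.181 and 0.587). These contrasts share the young My-HSC libraries. Dnajc6 (auxilin, which uncoats clathrin vesicles with HSP70) was highest among old Ly-HSCs, at 21.6, 15.9 and 17.7 FPKM, against 9.08, 7.25 and 2.72 among young Ly-HSCs, 0.0124, 5.69 and 5.52 among young My-HSCs and 2.76, 5.76 and 6.76 among old My-HSCs. Every old Ly-HSC library exceeded every other library, and old My-HSCs differed from old Ly-HSCs by -1.73 ± 0.69 (limma, adjusted p = 1). Bag5, another BAG co-chaperone of HSP70, was 10.0, 16.8 and 20.7 FPKM in old Ly-HSCs and 29.3, 23.0 and 26.7 in old My-HSCs (0.75 ± 0.39, limma, adjusted p = 1), and the difference was 0.39 without the 4 libraries numbered 1.

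**Figure D5:**
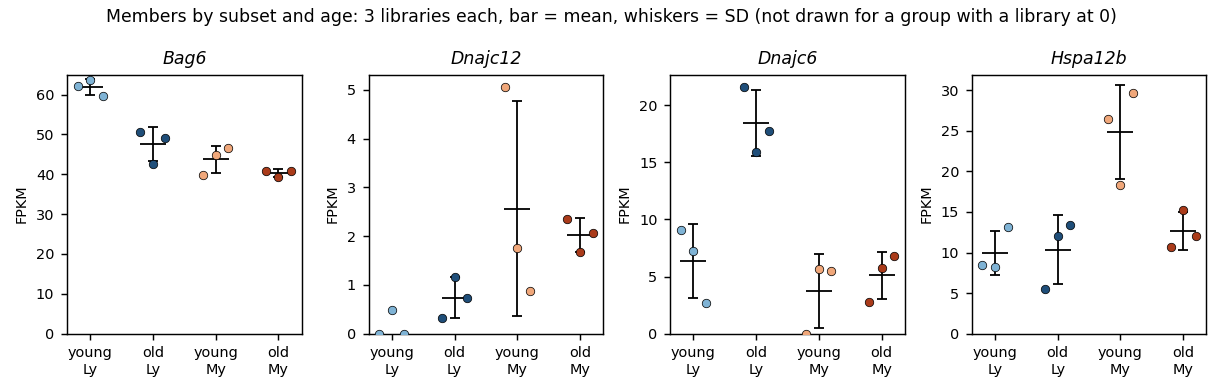
FPKM of Bag6, Dnajc12, Dnajc6 and Hspa12b in the 4 groups, 1 point per library, with the mean and SD of 3 libraries where no library was listed at 0. Bag6 is highest among young Ly-HSCs (59.7 to 63.6), Dnajc6 among old Ly-HSCs (15.9 to 21.6) and Hspa12b among young My-HSCs (18.4 to 29.7).

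Comparing young My-HSCs with young Ly-HSCs, limma called no member against 0.119% of genes. At an unadjusted p under 0.05 there were 4 members (2 higher and 2 lower), beside 13.8% of all genes. Libraries did not overlap for 4 members that were higher (Dnajb11, Dnajc12, Hspa12b and Tcp1), beside 8.97% of genes, and for 1 that was lower (Bag6), beside 4.41%. Comparing old My-HSCs with old Ly-HSCs, limma called no member against 0.0275% of genes, and 1 member (Dnajc6, lower) had an unadjusted p under 0.05, beside 4.03%. There, 3 members were higher without overlap (Bag5, Dnajc12 and Dnajc14), beside 9.19%, and 4 were lower (Bag6, Dnajc6, Dnajc9 and Dnajc11), beside 7.53%. At both ages, Dnajc12 was higher and Bag6 lower without overlap, beside 1.91% and 0.807% of genes. Averaged over the ages no member was called, against 0.413% of genes, and 4 had an unadjusted p under 0.05, beside 11.2%. The share of members without overlap was 5.48% and 1.37% in young cells (higher and lower) and 4.11% and 5.48% in old cells, each below the share of all genes.

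Genes that work with these chaperones were counted from lists drawn up with earlier results of these data known, and limma called none of their genes in the age, subset or interaction contrasts. Of all genes tested, 62.4% were positive with age in Ly-HSCs and 55.8% in My-HSCs, against which the counts of each list stand. Of 11 listed genes of ER folding 9 were tested. All 9 were positive with age in both subsets (3 in Ly-HSCs and 1 in My-HSCs at an unadjusted p under 0.05). Their medians were 0.68 in Ly-HSCs and 0.31 in My-HSCs, beside 0.18 and 0.07 over all genes. How the differences of these lists change with the share of genes at 0 as a covariate, or without the libraries numbered 1, was not examined. Manf, an ER stress-responsive secreted factor, was 12.999, 10.0 and 9.62 FPKM in young and 22.4, 25.4 and 16.8 among old Ly-HSCs, and 5.34, 10.4 and 15.4 in young and 16.8, 25.8 and 19.8 among old My-HSCs. It thus lay higher in every old library than in every young library, beside 1.21% of all genes. This observation was made after its values were seen (averaged difference 0.97 ± 0.26, limma, adjusted p = 0.113). Of 16 further HSP90 co-chaperones, 8 were positive with age in Ly-HSCs (3 at an unadjusted p under 0.05) and 6 in My-HSCs (1). Ptges3 (p23, which completes the HSP90 cycle) was 32.9, 56.6 and 76.8 FPKM in young and 143, 105 and 92.9 among old Ly-HSCs, and 61.4, 86.9 and 64.0 in young and 88.4, 125 and 118 among old My-HSCs, with an averaged difference of 0.86 ± 0.20 (limma, adjusted p = 0.0774). Its old libraries lay above the young ones without overlap in both subsets, beside 2.44% of all genes. Ptges3 too was picked out after its values were seen. Of the 7 tested HSP70 partners 5 were positive in Ly-HSCs and 4 in My-HSCs, of 6 genes of mitochondrial folding and proteolysis 3 and 3, of 5 chaperonin and prefoldin partners 3 and 5, of 5 regulators of the unfolded protein response 3 and 5, and of 3 further genes of the HSF1 pathway 3 and 3.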

How the data were processed

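RNA was measured in 12 libraries, 3 in each of 4 groups. The authors deposited 1 table of FPKM values per gene. Libraries were made with a stranded mRNA kit per the labels' protocols, and bcl2fastq 2.17, STAR, DESeq2 and the builds GRCm38 and mm10 are named, without their roles, per the submitters' processing notes. The deposited FPKM table holds no read counts, so depth is unknown and its effect on zeros cannot be set apart.

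Members were selected by gene name. The members and all gene lists were chosen with earlier results of these data known. Values were transformed to log2(FPKM + 1), genes at 1 FPKM or more in at least 3 libraries were kept (10900), and limma 3.58.1 in R 4.3.3 was fitted to the 4 group means with a trended prior. P-values are two-sided and were adjusted by Benjamini-Hochberg over all genes tested, for each of 7 contrasts, at a threshold of 0.05. The fit was run on simulated data with independent errors and 1 SD per gene for all groups. The spread of the real libraries differed between groups, so that run does not show how the fit performs on them. P-values measure the spread between libraries, which the labels place in 3 independent groups of mice. The main fit treated all 12 libraries as independent, without pairing by replicate number. An exact permutation test of 3 against 3 libraries cannot go below 0.1. Described by rule were members called in any contrast, textbook chaperones, the TRiC subunits and the Pfdn genes. The rule also took the most abundant member of each family and members whose ages did not overlap in the same direction in both subsets. It further took the 3 members of smallest p in each pairwise contrast and in the averaged age contrast (37 in all). Hspa13, Manf, Ptges3 and the members listed for libraries that did not overlap were named after their values were seen. Gene positions are from GENCODE M21 and promoters from RefSeq. Processing was repeated under 25 settings (pseudocount, filter, scaling, weights, covariate, replicate block, libraries left out).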

Additional observations from a re-analysis of the deposited data

How the results depend on the processing

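The number of members called stayed at 0 in each of the 7 contrasts under all settings run, with exceptions that concern Hspb11 alone. With 1 weight per group, 1 member was called for old against young My-HSCs, and for the mean of both subsets the count ranged from 0 to 1 when single libraries were left out (1 without young Ly-HSC replicate 3). Of 654 values for 28 member differences, 614 kept their direction and side of the threshold, 2 passed it and 38 changed sign. Of the 28 differences, 18 never changed sign. The 28 were those of the 3 members of smallest p in each pairwise contrast and in the averaged age contrast. To these was added the averaged age difference of the textbook chaperones and of Dnajb11. A difference taken for its small p is less prone to change sign, so the 18 follow partly from this choice. All sign changes concern textbook chaperones, which were taken whatever their p only for the age difference averaged over the subsets. That averaged difference was called for none of them, and the cause of the sign changes was not tested. With the share of genes at 0 as a covariate it became -0.15 for Hspa9, 0.13 for Hspd1, -0.16 for Bag3, -0.48 for Dnajb1, -1.83 for Hspa1a, -3.25 for Hspa1b, -0.032 for Hspe1 and -0.37 for Hsph1, and the number of members higher in My-HSCs (mean of both ages) went from 39 to 25. Stip1 became -0.024 with size factors from medians of ratios and -0.0063 on a TPM scale, and Bag3 -0.0498 under quantile normalization. Without the 4 libraries numbered 1, Hspd1 became 0.0647, Hspa1a -1.25 and Hspa1b -0.43. Without both young libraries numbered 1, a setting chosen after seeing the data, they became 0.0705, -0.93 and -0.80. With single libraries left out, the ranges were -0.52 to 0.0166 for Hsf1, -0.0872 to 0.11 for Stip1, -0.068 to 0.0363 for Hspd1, -0.42 to 0.42 for Bag3, -0.10 to 1.30 for Hspa1a, -0.0475 to 1.56 for Hspa1b and -0.0327 to 0.21 for Hsph1.

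With the replicate number as a block, the number of members called was 0 in every contrast, while calls over all genes went from 38 to 15 and from 23 to 9 for age in Ly-HSCs and My-HSCs, from 13 to 4 and from 3 to 1 for subset in young and old cells, and from 92 to 69 and 45 to 32 for the means. Same-numbered old Ly-HSC and old My-HSC libraries deviated together (correlations of 0.256, 0.233 and 0.210). Old libraries of unlike number had correlations of -0.218 to 0.106 between the subsets. Same-numbered young Ly-HSC and young My-HSC libraries had correlations of 0.048, 0.0026 and 0.0023. A block within the old libraries alone, chosen after seeing the data, gave 0 members and 3 genes. Over all settings, calls among all genes ranged from 0 to 223 for age in Ly-HSCs, 0 to 71 in My-HSCs, 0 to 299 and 0 to 69 for subset in young and old cells, 9 to 197 and 14 to 111 for the means and 0 to 6 for the interaction. Read depth is unknown, so a gene listed at 0 cannot be taken as absent.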
